A study of Homo sapiens with 6 samples.

Results

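The 9 genes described here are drivers, stem cell regulators and surface markers of acute myeloid leukaemia (AML), a cancer of immature myeloid blood cells. They are the receptor gene FLT3, the surface enzyme gene CD38, the transcriptional regulator genes MECOM, RUNX1T1 and BCL11A, the nucleolar gene NPM1, and the DNA methylation genes DNMT3A, TET2 and IDH2. They were chosen by symbol, out of 18086 gene symbols found across the 4 peak lists. The study made chromatin immunoprecipitation libraries (ChIP-seq) for the histone marks H3K4me3 and H3K27me3 in HL-60, an established human leukaemia cell line that the labels call myeloblast. JMJD3 knockout cells were set against parental cells, with 1 library for each genotype and mark. Both genotypes were grown without any treatment named in the labels. The sources used here do not say how the knockout was made or how many clones it holds. Of 6 libraries the 4 immunoprecipitated ones were compared, and the 2 inputs were not analysed here.

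JMJD3, the product of KDM6B, is an enzyme that takes methyl groups off lysine 27 of histone H3. The mark H3K27me3 is laid down by Polycomb repressive complex PRC2 and marks repressed chromatin, whereas H3K4me3 marks the start sites of active or poised genes and is commonest over stretches rich in CG dinucleotides. In AML, genes of DNA methylation, of growth factor signalling and of the nucleolus are often mutated, while MECOM and RUNX1T1 are activated or fused by chromosome rearrangement. BCL11A and MECOM act in blood stem cells and progenitors, and CD38 is low on the most immature of these.

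Promoter sequences are shown for 3 of the genes whose marks near a start differed between the lists. CD38 had H3K4me3 in knockout cells only. FLT3 had a peak at its start in parental cells only, of the narrowest width called, and MECOM carried H3K27me3 around both of its groups of starts in both genotypes, mostly at different positions. Each is a RefSeq window of 300 bases on build GRCh38.p14, from 250 bases before to 50 after a start, printed 5′ to 3′ with CG dinucleotides in capitals. The start in that build may differ from the one used in the lists, so the windows were not cut to the peaks. The CD38 window is chr4:15778078-15778377 on the plus strand and the FLT3 window chr13:28100527-28100826 on the minus strand. The outer MECOM window is chr3:169663663-169663962, and of 2 inner windows in the table the one shown is chr3:169147422-169147721, both on the minus strand. The inner window not shown is chr3:169146490-169146789.
CD38: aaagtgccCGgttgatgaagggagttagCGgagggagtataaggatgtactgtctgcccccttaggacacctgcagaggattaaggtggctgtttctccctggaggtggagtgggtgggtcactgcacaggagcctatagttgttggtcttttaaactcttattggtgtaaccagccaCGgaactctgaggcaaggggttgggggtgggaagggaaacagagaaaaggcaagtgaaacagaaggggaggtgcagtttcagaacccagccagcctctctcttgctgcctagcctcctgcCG
FLT3: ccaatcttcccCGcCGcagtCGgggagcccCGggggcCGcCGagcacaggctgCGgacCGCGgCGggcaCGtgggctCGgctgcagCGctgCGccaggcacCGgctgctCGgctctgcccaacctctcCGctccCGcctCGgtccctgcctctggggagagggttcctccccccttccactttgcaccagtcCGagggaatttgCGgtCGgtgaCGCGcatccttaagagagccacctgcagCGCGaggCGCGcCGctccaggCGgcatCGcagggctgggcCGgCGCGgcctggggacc
MECOM outer start: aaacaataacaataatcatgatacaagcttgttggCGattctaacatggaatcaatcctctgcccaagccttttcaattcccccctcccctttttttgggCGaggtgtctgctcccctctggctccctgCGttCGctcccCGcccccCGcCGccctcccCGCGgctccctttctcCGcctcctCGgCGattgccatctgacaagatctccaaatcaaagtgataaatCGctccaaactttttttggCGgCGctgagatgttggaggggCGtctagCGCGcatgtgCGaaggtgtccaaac
MECOM inner start: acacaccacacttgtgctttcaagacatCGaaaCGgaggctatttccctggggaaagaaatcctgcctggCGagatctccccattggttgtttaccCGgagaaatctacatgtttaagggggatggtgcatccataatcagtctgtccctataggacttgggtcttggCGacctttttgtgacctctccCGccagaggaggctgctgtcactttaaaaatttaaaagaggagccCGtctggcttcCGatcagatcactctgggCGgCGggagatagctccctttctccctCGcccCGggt

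The CD38 window held 4 CG dinucleotides and the FLT3 window 34, against a median of 14 over the 35116 windows of the table (quartiles 4 and 28). The MECOM windows shown held 19 at the outer and 12 at the inner start, and the inner window not shown held 19. A RefSeq window was found for 8 of the 9 genes, all but RUNX1T1. Of the genes not printed, IDH2 had 1 window with 6 CG dinucleotides, and NPM1, TET2, BCL11A and DNMT3A had windows reaching 33, 35, 27 and 46. The listed IDH2 transcripts start at 90643854 and at 90645786 in hg19, and its window was not matched to either start. Of 6 motifs searched on both strands, CCAAT was found in the windows of CD38, FLT3 and the inner MECOM start shown, and in 34.6% of all windows. CACGTG was found in the FLT3 window and in 7.26% of all windows. GGGCGG was found in both MECOM windows shown and in 45.0% of all, and TGTGGT in the inner one shown and in 13.1%. Of the 6 motifs the other inner window held GGGCGG alone. TATAAA and CCGGAA were found in none of the 4 windows shown and in 11.5% and 17.2% of all. None of these motifs contains another, and a match describes the letters only.

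The lists hold called peaks with no read counts or heights, so depth is unknown, and a difference in depth or enrichment cannot be told apart from one between genotypes. The knockout H3K4me3 list held 24943 peaks with a median width of 260 bp, against 33470 peaks of 359 bp in the parental list. The H3K27me3 lists held 3234 peaks in knockout and 3578 in parental cells. All 8 granulocyte markers looked up had H3K4me3 within 20 kb in both genotypes, with a summed width of 13781 bp in knockout and 27317 bp in parental cells. Of 6 B and T lymphocyte markers 3 were listed in each genotype, of 5 erythroid markers 1 in knockout and 2 in parental cells, and of 5 epithelial and fibroblast markers 1 in each. The listed lymphocyte markers summed to 5754 bp in knockout and 9439 bp in parental cells. The erythroid ones summed to 667 and 2345 bp, and the epithelial and fibroblast ones to 171 and 672 bp. KDM6B, the targeted gene, had 6 H3K4me3 peaks in knockout and 17 in parental cells, which does not check the knockout of its coding sequence.

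H3K4me3 lay near 7 of the 9 genes in knockout cells and near 6 in parental cells. A gene counts as listed when the centre of a peak lies at most 20 kb from the start site (TSS) of any of its transcripts, and its width is the sum of its distinct peaks. Among all gene symbols, 75.6% were listed in the knockout and 85% in the parental list. FLT3, BCL11A, NPM1, DNMT3A, TET2 and IDH2 were listed in both, CD38 in knockout cells only, and MECOM and RUNX1T1 in neither. The 9 genes together had 25 peaks in each genotype, which covered 8890 bp in knockout and 19652 bp in parental cells. Their median peak was 278 bp wide in knockout and 525 bp in parental cells, and their widest 1032 and 3249 bp.

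**Figure D1:**
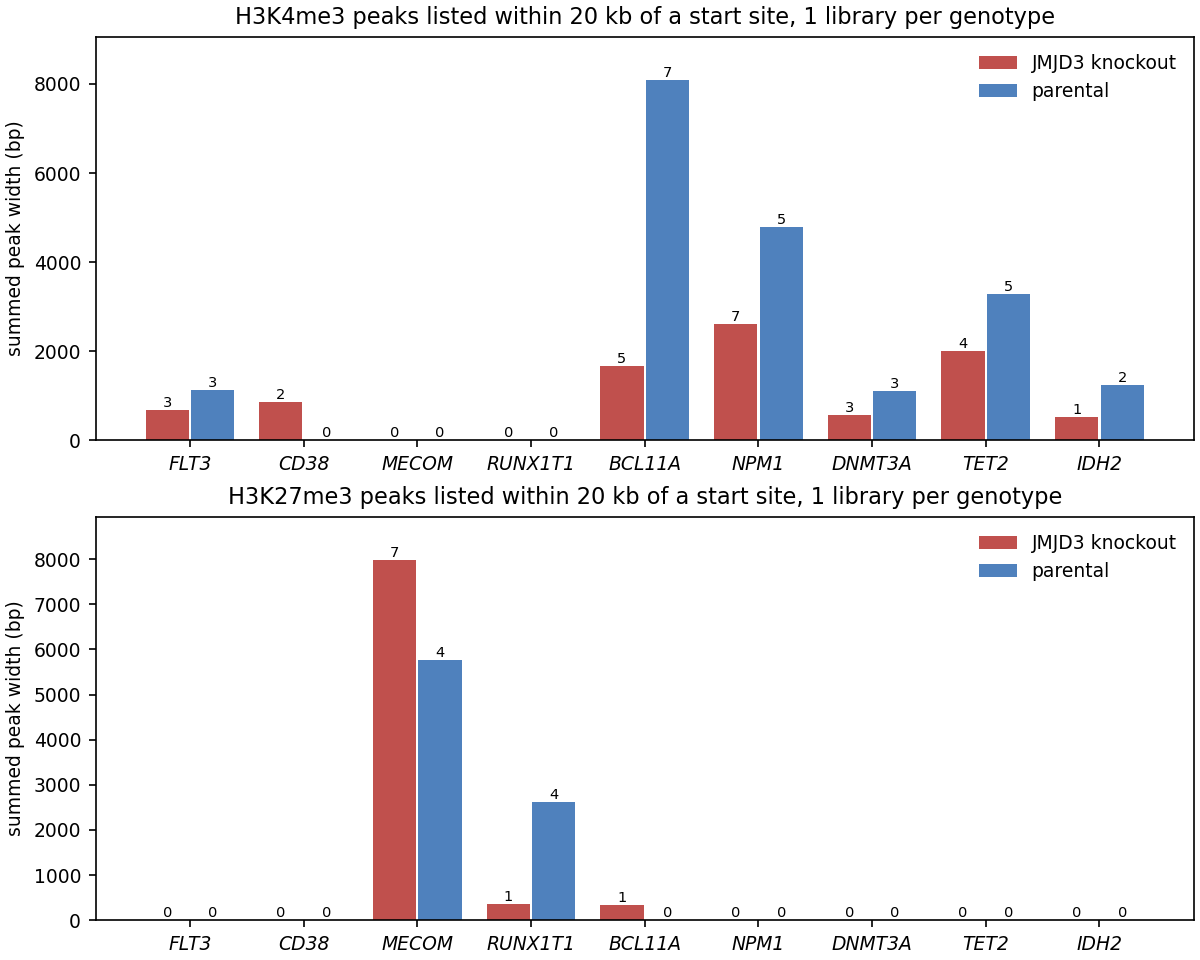
Summed width in bp of the distinct peaks within 20 kb of a start site of each gene, H3K4me3 above and H3K27me3 below, with JMJD3 knockout bars left of parental bars and the number of peaks on each bar. There is 1 library per bar and so no error. H3K4me3 was narrower in knockout cells at 6 genes and present in knockout cells only at CD38, and H3K27me3 was listed at MECOM, RUNX1T1 and BCL11A.

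All 6 genes listed in both H3K4me3 lists were narrower in knockout cells, as were 96.1% of the 13433 genes listed in both. Their median log2 ratio of width, knockout over parental, was -0.94 (-2.27 to -0.72), beside -1.03 over all genes (quartiles -1.50 and -0.66). BCL11A and IDH2, 2 of the 6, were at or below 50% of the parental width, as were 52.2% of all genes. The members nearest to this limit on either side were IDH2 at -1.28 and DNMT3A at -0.997. With 1 library per group no test of these differences exists.

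FLT3 encodes the receptor tyrosine kinase for FLT3 ligand, which drives the growth of blood progenitors and is among the most often mutated genes of AML. Its start, shared by NM_004119 and NR_130706, lies at 28674729 on chromosome 13 (hg19, minus strand). It had 3 peaks of 686 bp in knockout cells and 3 peaks of 1130 bp in parental cells, a log2 ratio of -0.72. In knockout cells none of them lay at the start: 2 lay 6749 and 7067 bp downstream, within the gene, and 1 lay 7029 bp upstream. In parental cells 1 lay 163 bp upstream of the start, from 28674820 to 28674965. That peak was 146 bp wide, the narrowest width in either H3K4me3 list, shared by 1459 of the parental peaks. Among the widest peaks in lists of equal length it dropped out, which left no peak at the start in either genotype and a difference in width of -298 bp, knockout minus parental, in place of -444 bp. The downstream region was marked in both genotypes, by a pair of peaks of 263 and 268 bp in knockout cells and by 1 peak of 528 bp in parental cells. The upstream peaks, 155 bp wide in knockout and 456 bp in parental cells, did not overlap.

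CD38 encodes a surface ectoenzyme that cleaves NAD and is more abundant on committed than on immature blood progenitors. It had 2 H3K4me3 peaks of 851 bp in knockout cells and none within 20 kb in parental cells. Both lay just downstream of the TSS of NM_001775 at 15779930 on chromosome 4. The wider, of 573 bp, ran from 15780360 to 15780932, its near edge 428 bp from the TSS, and the other, of 278 bp, was centred 1438 bp from it. Neither overlapped a parental peak. Being listed in knockout cells only was rare, at 1.49% of the 15614 genes listed in either list, while 12.5% were listed in parental cells only. Among the 232 genes listed in knockout cells only the median width was 218.5 bp, and 3 were wider than CD38. The CD38 window printed above was poor in CG dinucleotides, with 24.5% of all windows holding fewer. No H3K27me3 peak was listed near CD38 in either genotype.

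BCL11A, a zinc finger repressor of fetal globin genes that is also needed for lymphoid development, had the broadest H3K4me3 of the 9 genes in parental cells and the largest difference in width. It had 5 peaks of 1676 bp in knockout and 7 peaks of 8090 bp in parental cells, a log2 ratio of -2.27, below which 7.63% of all genes fell. In parental cells, 99.3% of the listed genes had less width than BCL11A, and in knockout cells 78.7%. With peak centres limited to 1 kb the direction turned, to 314 bp wider in knockout cells. The TSS of its 3 listed transcripts lies at 60780633 on chromosome 2. The parental peaks formed 1 stretch of 9047 bp when gaps of up to 500 bp were bridged, from 4115 bp upstream to 4932 bp downstream. The stretch was open at the start itself, between a peak of 2349 bp ending 6 bp upstream and one of 2341 bp beginning 98 bp downstream. The knockout peaks, of 178 to 468 bp, stayed 5 separate islands spread over the same stretch, and each overlapped a parental peak. In knockout cells 1 H3K27me3 peak of 326 bp was also listed, 17316 bp upstream, and in parental cells there was none. Of the 3290 genes with H3K27me3 in either list, 29% had it in knockout cells only and 28.5% in parental cells only. BCL11A was thus the only one of the 9 genes with both marks in 1 genotype, as were 2.7% of all symbols in knockout cells and 3.07% in parental cells. That state rests on the 1 distant peak, which is close to the narrowest width in its list, 298 bp. With peak centres limited to 10 kb the H3K27me3 peak dropped out. Within 5 Mb of BCL11A 14 H3K27me3 peaks were listed in knockout and 7 in parental cells, and their part in this result was not tested.

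**Figure D2:**
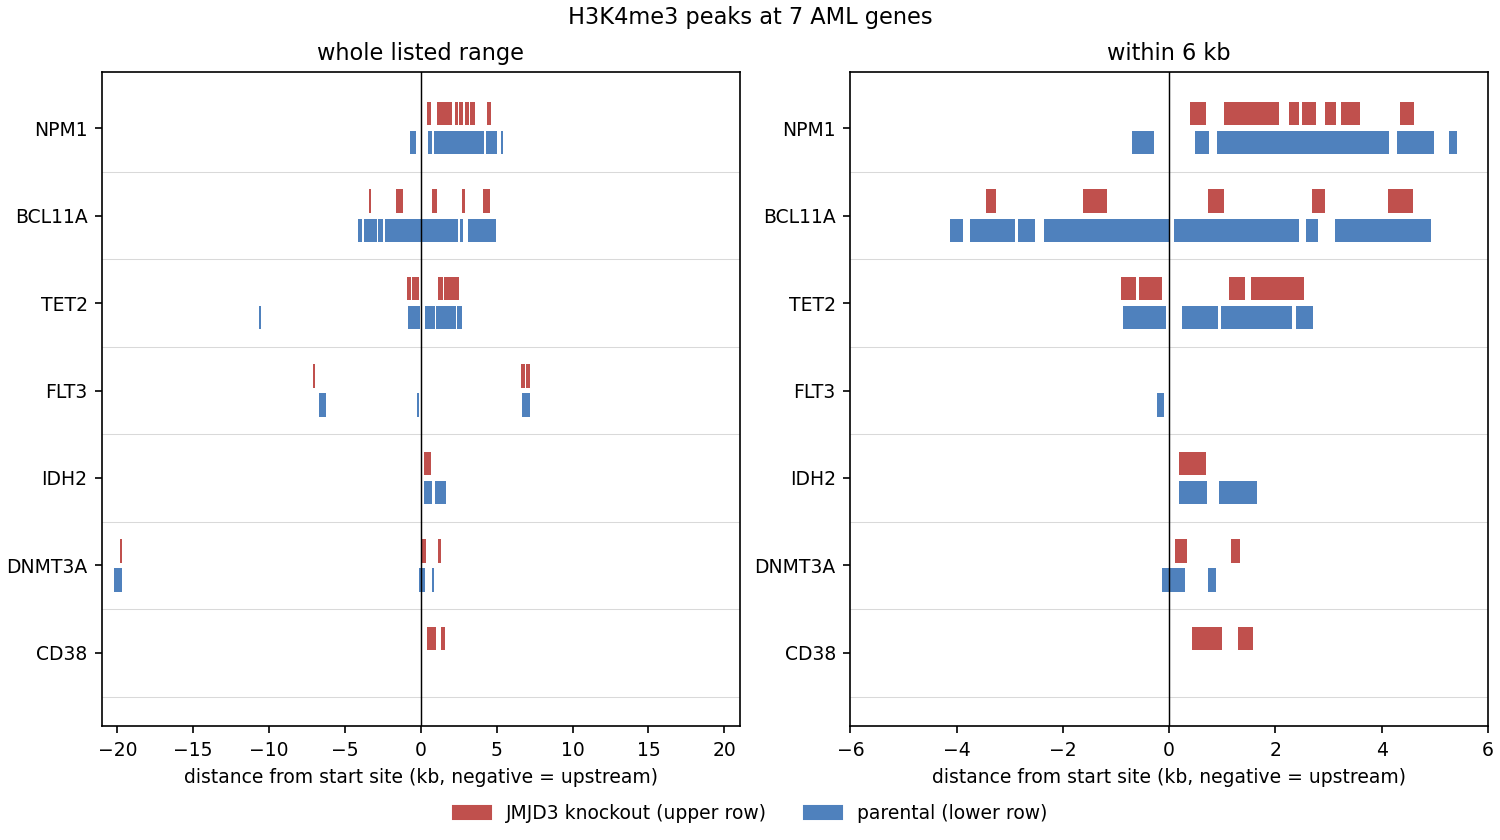
H3K4me3 peaks of 7 AML genes by distance from a start site in kb, negative upstream, over the whole listed range at left and within 6 kb at right, JMJD3 knockout above parental for each gene. Each block is 1 called peak drawn to scale. The reference start is the one most transcripts share, and that of NM_001127208 for TET2. The parental stretch of 9047 bp over BCL11A stands against 5 knockout islands, and CD38 has knockout peaks only.

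NPM1, which encodes the nucleolar chaperone nucleophosmin, had more but shorter H3K4me3 peaks in knockout cells. It had 7 peaks of 2604 bp in knockout and 5 peaks of 4782 bp in parental cells, a log2 ratio of -0.88. Such a pattern, more peaks but less width, was shown by 20.3% of all genes listed in both. The parental list had 1 peak of 3249 bp from 170815602 to 170818850 on chromosome 5, within the gene, where the knockout list had 5 peaks of 180 to 1032 bp. A parental peak of 417 bp centred 498 bp upstream of the TSS at 170814708 had no knockout counterpart. The peaks of NPM1 are also listed for MIR3912, a microRNA gene.

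TET2 and DNMT3A act on DNA methylation from opposite sides, TET2 by oxidising methylcytosine and DNMT3A by adding methyl groups. TET2 had 4 H3K4me3 peaks of 2000 bp in knockout and 5 of 3289 bp in parental cells, a log2 ratio of -0.72. It was the only one of the 9 genes with an H3K4me3 peak across a TSS in both genotypes. That of NM_017628 at 106067032 on chromosome 4 lay under a peak of 280 bp in knockout cells and under one of 821 bp in parental cells. A peak spanned a TSS in 8.2% of genes listed in the knockout and 20.2% of those in the parental list. A parental peak of 663 bp, centred 581 bp downstream of the TSS of NM_001127208, overlapped no knockout peak. Nor did a parental peak of 167 bp centred 9795 bp upstream of that of NM_017628.

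DNMT3A had 3 peaks of 558 bp in knockout and 3 peaks of 1114 bp in parental cells. The TSS of NM_175629 and NM_175630 at 25565460 on chromosome 2 lay under a parental peak of 433 bp, and the knockout peak there, of 229 bp, began 110 bp downstream. Further peaks of 146 bp in knockout and 535 bp in parental cells lay 19754 and 19951 bp upstream, at the edge of the listed range. With peak centres limited to 10 kb the difference in width, knockout minus parental, was -167 bp in place of -556 bp. The log2 ratio of -0.997 given above thus depends on these distant peaks. IDH2, the mitochondrial isocitrate dehydrogenase whose mutant forms make a metabolite that blocks TET2, had the fewest H3K4me3 peaks of the genes listed in both. It had 1 peak of 515 bp in knockout and 2 peaks of 1247 bp in parental cells, a log2 ratio of -1.28. The peak at the TSS of NM_002168, at 90645786 on chromosome 15, was kept almost whole, with 515 bp in knockout and 525 bp in parental cells. The other parental peak, of 722 bp from 90644123 to 90644844, was not in the knockout list.

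Knockout H3K4me3 peaks of the 9 genes lay mostly on parental ones. Of the 25 knockout peaks, 21 (84%, Wilson 95% interval 65.3 to 93.6) overlapped a parental peak by at least 1 bp, beside 88.7% of all knockout peaks. In turn 15 of the 25 parental peaks (60%, 40.7 to 76.6) lay on a knockout peak, beside 52.6% of all. When at least 50% of the peak had to be covered, 80% of knockout and 20% of parental peaks were shared, beside 79.2% and 22.7% of all. When 50% of both peaks had to be covered, 16% of either were, beside 26.2% of all knockout and 19.5% of all parental peaks. Peaks of 1 gene depend on each other, and the intervals cover no more than counting error. The 4 knockout peaks off parental regions were both of CD38, the upstream one of FLT3 and 1 of DNMT3A. At NPM1 96.5% of the knockout width lay on parental peaks and at BCL11A 91.3%, while 52.6% and 18.9% of the parental width was covered in return.

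The genes around the 6 were narrower in knockout cells too. Other genes within 5 Mb had median log2 ratios from -0.76 around NPM1 to -1.18 around TET2, beside -1.03 over all genes. BCL11A, at -2.27, had 4 of 40 neighbours below it, and their median was -1.07. TET2, at -0.72, stood above 27 of its 36. The 20 neighbours of CD38 listed in both genotypes had a median of -0.92. A gene listed in knockout cells only, as CD38 was, has no ratio and could not be among them, so they cannot be set against CD38.

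**Figure D3:**
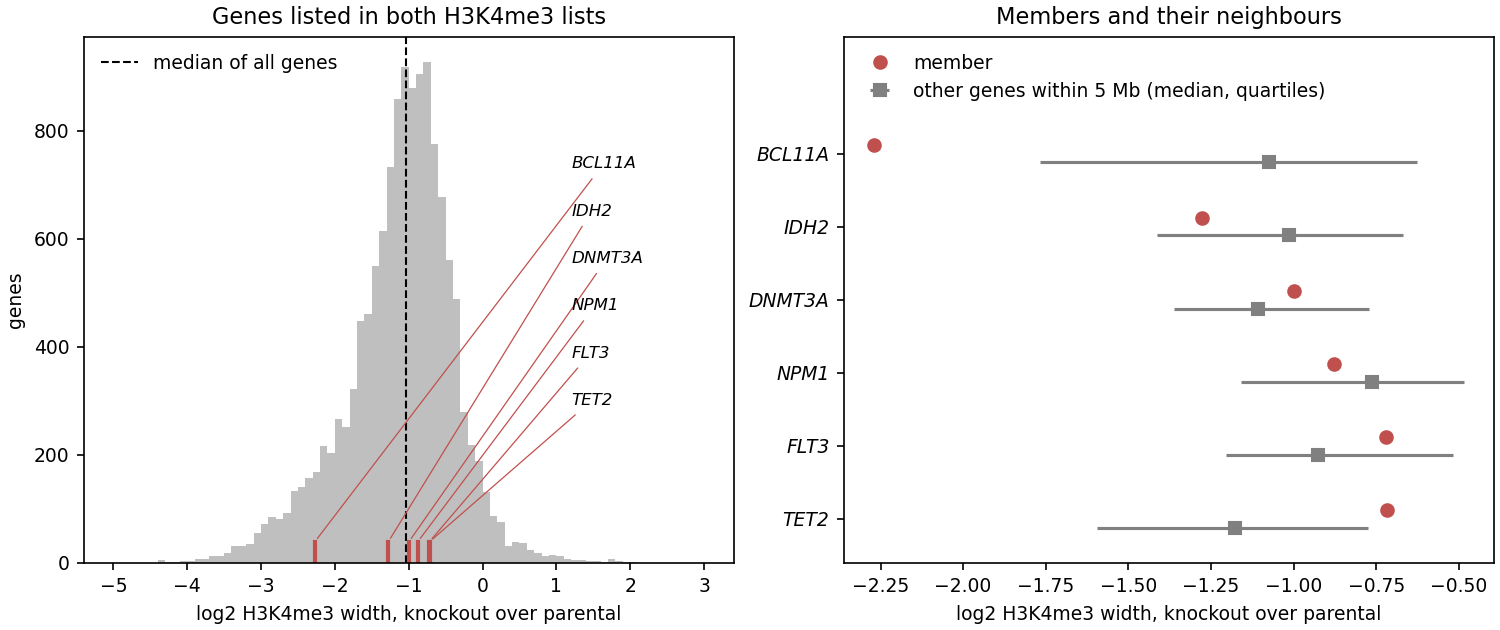
Log2 ratio of summed H3K4me3 width, knockout over parental, as a histogram of the 13433 genes listed in both lists with the 6 AML genes marked (left; values beyond the axis are drawn at its ends), and beside the median and quartiles of other genes within 5 Mb (right). BCL11A at -2.27 lies below the lower quartile of its neighbours, and TET2 at -0.72 above the upper quartile of its own.

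MECOM, which encodes the stem cell transcription factor EVI1 and its longer form MDS1-EVI1, carried H3K27me3 in both genotypes and no H3K4me3 within 20 kb in either. Its width was 7981 bp in 7 peaks in knockout and 5767 bp in 4 peaks in parental cells, a log2 ratio of 0.47. The difference, knockout minus parental, was 2214 bp, and its direction turned to -53 bp within 5 kb and to -1633 bp by the nearest peak edge within 1 kb. The median over the 1399 genes listed in both H3K27me3 lists was -0.14 (quartiles -1.06 and 0.81). Of all symbols, 13% were listed for H3K27me3 in the knockout and 12.9% in the parental list. MECOM was among the most covered genes of both, with 97.0% of knockout and 92.0% of parental genes covering less. Its width takes in 2 distant groups of starts, with 6482 and 1499 bp in knockout and 2654 and 3113 bp in parental cells. A gene with starts in 1 place is summed over less ground, so these ranks are not on equal terms. Among genes with H3K27me3, 79.3% in knockout and 76.2% in parental cells likewise had no H3K4me3 within 20 kb.

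The H3K27me3 peaks of MECOM lay around the same 2 groups of starts in both genotypes, mostly at different positions. The 7 listed transcripts start in 2 places 516 kb apart on chromosome 3, 5 between 168864094 and 168865522 and 2 at 169381564. Around the inner starts there were 5 peaks of 6482 bp in knockout and 3 peaks of 2654 bp in parental cells. A knockout peak of 1480 bp, from 168864990 to 168866469, spanned the TSS of NM_001164000, and the nearest parental peak there, of 356 bp, was centred 2698 bp upstream. An H3K27me3 peak spanned a TSS in 4.85% of the genes listed in knockout and 5.35% of those listed in parental cells. Around the outer start there were 2 peaks of 1499 bp in knockout and 1 peak of 3113 bp in parental cells. The parental peak, from 169381567 to 169384679, ended 2 bp upstream of the outer TSS. The knockout peaks there were centred 8214 bp upstream and 9626 bp downstream. Only 1 of the 7 knockout peaks overlapped a parental one, the one centred 18056 bp downstream of the inner starts, with 678 bp in common.

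RUNX1T1, a corepressor gene best known as the fusion partner of RUNX1 in AML, also had H3K27me3 and no H3K4me3. It had 1 peak of 351 bp in knockout and 4 peaks of 2620 bp in parental cells, a log2 ratio of -2.90, below which 1.64% of genes fell. The knockout peak was close to the narrowest width in its list, 298 bp. The difference, knockout minus parental, was -2269 bp, and it shrank to -1400 bp within 10 kb and -784 bp within 5 kb. Within 1 kb no H3K27me3 peak of RUNX1T1 was listed. As at MECOM, the width takes in starts in separate places. At or below 50% of the parental width stood 26.8% of the 1399 genes, and at 2 times the width or more 21.3%. In the direction of the genome, the knockout peak was centred -1278 bp from the nearest of its TSSs, at 93107490 on chromosome 8. The nearest parental peak, of 877 bp, was centred -1834 bp from the TSS at 93111916, and the other 3 were nearest to the start of NM_004349 at 93075191. No knockout peak overlapped a parental one. Fewer H3K27me3 peaks were listed around RUNX1T1 as well, 19 in knockout and 38 in parental cells within 5 Mb, whereas around MECOM there were 19 and 15. The part of these regional counts in the results at the 2 genes was not tested.

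**Figure D4:**
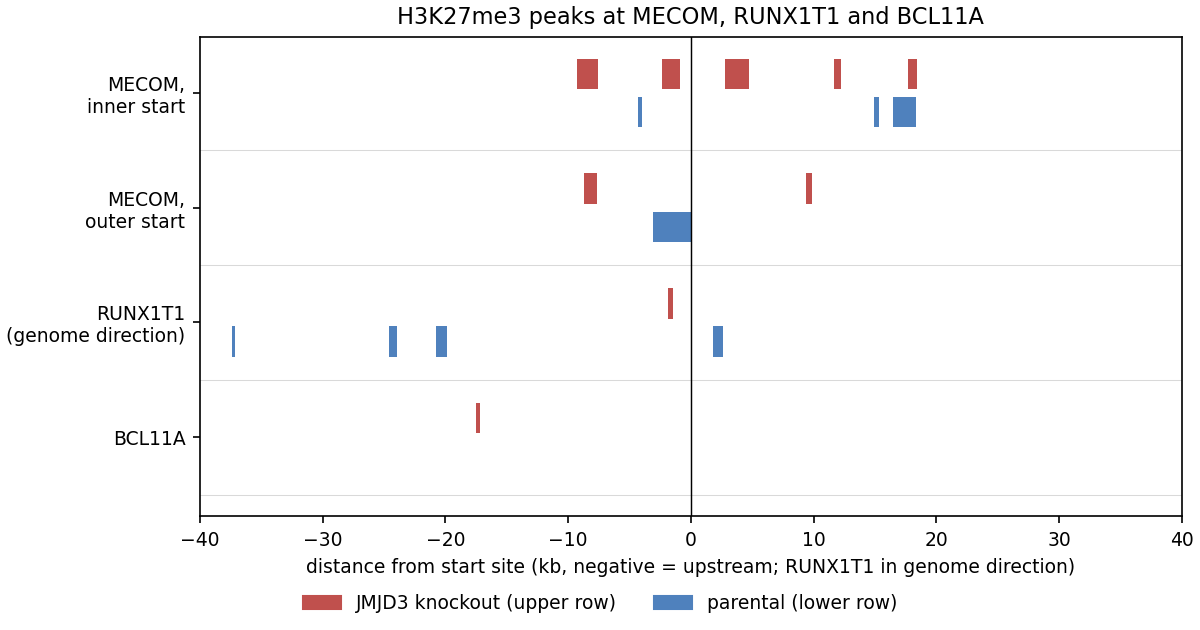
H3K27me3 peaks of MECOM, RUNX1T1 and BCL11A by distance from a start site in kb, JMJD3 knockout above parental, each block 1 called peak drawn to scale. Distances follow the gene, negative upstream, except for RUNX1T1, which is in genome direction from 93107882, and the inner MECOM start is that at 168864094. The parental peak of 3113 bp ends at the outer MECOM start, and 5 of the 7 knockout peaks lie around the inner one.

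Across the 9 genes, those with H3K4me3 and those with H3K27me3 were separate groups in parental cells, with 6 genes and 2 genes and none in both. In knockout cells the groups held 7 and 3 genes and shared BCL11A, by its 1 distant H3K27me3 peak. Of the 9 H3K27me3 peaks in knockout cells 1 overlapped a parental one (11.1%, Wilson 95% interval 1.99 to 43.5), beside 29.6% of all knockout peaks. Of the 8 in parental cells 1 did (12.5%, 2.24 to 47.1), beside 27.2% of all.

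Other AML genes showed mostly H3K4me3 in both genotypes. Of 82 symbols in 6 role lists, of which ADGRG1 and GPR56 name the same gene, 66 were listed in both, 4 in parental cells only, 0 in knockout cells only and 12 in neither. Of all genes with H3K4me3 in either list, 12.5% had it just in parental cells and 1.49% just in knockout cells. The median log2 ratio of the 66 was -0.96, and 31 were at or below 50% of the parental width, beside a median of -1.03 and a share of 52.2% over all genes. STAT5A and STAT5B, both among the 31, had the same widths and peak numbers as each other, so they are not separate observations. All 13 genes of receptors and signalling were listed in both, with a median of -0.995, and so were all 14 genes of DNA methylation and chromatin, with -1.08. Of 28 transcription factors and fusion partners 21 were listed in both (median -1.004), and of 9 genes of nucleolus, export and splicing 8 (-0.88). All 4 cohesin genes were listed in both, with a median of -1.34. They were spread widely, with STAG2 at -2.75, SMC1A at -2.06, SMC3 at -0.63 and RAD21 at 0.007. STAG2 and SMC1A, the lowest of them, both lie on the X chromosome, which is described below. Of 14 stem and surface symbols 6 were listed in both (-0.80), and the stem cell markers CD34, PROM1 and THY1 were among the 8 in neither.

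The 4 genes with H3K4me3 in parental cells only were BCOR, a Polycomb-associated corepressor, with 3076 bp, the splicing factor gene ZRSR2 with 1745 bp, PHF6 with 1234 bp and HOXA9 with 564 bp. BCOR, ZRSR2 and PHF6 lie on the X chromosome. There the number of knockout H3K4me3 peaks was 37.0% of that in parental cells, beside 74.5% over all chromosomes. Of its 419 listed genes 40.8% had parental peaks only, beside 12.5% of all listed genes. For the 237 X genes marked in both genotypes the median log2 value was -1.33, beside -1.03 for all such genes. The part of the X chromosome in the results at single genes was not tested. The lowest ratios were those of the corepressor genes NCOR1 (-3.53) and CBFA2T3 (-2.99) and of the cohesin gene STAG2 (-2.75). STAG2 is also on the X chromosome, as is the cohesin gene SMC1A. The highest were those of CBFA2T2 (0.10), CD44 (0.09) and ITGA6 (0.06). NCOR1 had 1 knockout peak of 146 bp, the narrowest width called. CD44 rests on widths close to it, 1 peak of 159 bp in knockout and 1 of 149 bp in parental cells. Of the 82 symbols 71 were in any of the lists, and H3K27me3 was listed for 2. Of all symbols in any list, 13% had it in knockout and 12.9% in parental cells. MEIS1, a HOX cofactor, had it in parental cells only (639 bp). RAD21 was the other, with 2133 bp in knockout and 8493 bp in parental cells.

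Some genes had width profiles close to those of the 9 over the 4 libraries, by the mean absolute difference of log2(width + 1). Nearest to CD38 was CYBB, with H3K4me3 of 928 bp in knockout cells and none in parental cells, at a mean difference of 0.03. CD38 had width in the knockout H3K4me3 list alone, so this match rests on that width, 851 bp. CYBB encodes a subunit of the phagocyte NADPH oxidase. For MECOM it was MIR6083 with H3K27me3 of 8078 bp in knockout and 5740 bp in parental cells, and for FLT3 it was APBB1IP with H3K4me3 of 685 and 1118 bp. BCL11A had no close match, the nearest being FKBP4 at 0.34. Each profile rests on 4 values, and 6 genes tied as the nearest to TET2.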

How the data were processed

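Each of the 4 deposited lists pairs called peaks with RefSeq transcripts, per the file headers, by chromosome, start, end, gene symbol, distance and score. Per the submitters' processing notes, the tools were MACS2 2.1.1, BWA 0.7.10 and SAMtools, and the build hg19. No settings are given in the sources used here. The score deposited by the authors follows from the distance alone (largest error 5e-13) and was not used. The H3K27me3 libraries were taken by title, since their antibody label names H3K4me3. Starts were read as counted from 0 and are printed as hg19 positions from 1. A TSS is the peak centre minus the listed distance. Upstream and downstream follow the strand in RefSeq.

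Distinct peaks within 20 kb were counted and their widths summed per symbol with Python 3.11.15 and pandas 2.3.3; the computation was tested on simulated data. Width is the extent of a called region, not the amount of the mark. The members and lists were chosen with earlier results of these data known. Named beside the 9 genes were, of the other AML genes, up to 4 per mark with differing state, the 3 highest and 3 lowest ratios, and the nearest width profiles. With 1 library per group there is no test. Alternatives changed the distance limit, the peaks kept, gene assignment, joining, the ratio limit and the overlap.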

Additional observations from a re-analysis of the deposited data

How the results depend on the processing

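Within 1 kb the 9 genes had 8 H3K4me3 peaks in knockout and 9 in parental cells, with 2 genes (CD38 and BCL11A) in knockout cells only and 1 (FLT3) in parental cells only. H3K27me3 was then listed for 1 gene in knockout and 0 in parental cells. BCL11A was reversed there, at 314 bp wider in knockout cells, because the centres of its widest parental peaks lie 1180 and 1268 bp from the TSS. Counting from the nearest peak edge within 1 kb, an alternative chosen after seeing the data, gave 8 and 13 peaks, 4 of 5 genes at or below 50% of the width beside 54.3% of all genes, 1 gene in parental cells only, and H3K27me3 for 1 gene in each genotype. MECOM was reversed with it, at -1633 bp, from 1 peak of 1480 bp in knockout and 1 of 3113 bp in parental cells, and within 5 kb, at -53 bp, from 2 peaks in each. FLT3 was in parental cells only within 5 kb too (1 gene), and with peaks of at least 300 bp FLT3 and DNMT3A were (2 genes), which left 11 knockout and 18 parental peaks.

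The median log2 ratio of the genes in both H3K4me3 lists was -1.14 within 1 kb (all genes -0.98), -0.83 within 5 kb (-1.01), -0.80 within 10 kb (-1.01), -0.87 for the nearest gene only (-0.98), -1.32 for peaks of at least 300 bp (-1.22), -0.81 for the widest peaks in lists of equal length (-0.92) and -2.01 by the nearest edge (-1.08). These medians rest on 4 genes within 1 kb and for peaks of at least 300 bp, on 5 within 5 kb and by the nearest edge, and on 6 otherwise. At or below 50% of the width were 3 of the 4 genes within 1 kb (48.9% of all genes). For peaks of at least 300 bp it was also 3 of 4 (61.4%). It was 2 genes within 5 kb, within 10 kb, for the nearest gene only and in lists of equal length. Joining peaks at most 500 bp apart left 16 stretches in knockout and 11 in parental cells. When 50% of the peak had to be covered, 20% of parental peaks were shared, and when 50% of both had to be, 16% of knockout and 16% of parental peaks were. CD38 was in knockout cells only under every alternative run. No paired analysis was possible because each group has 1 library and there is no test.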
